A study of Mus musculus with 18 samples.

Results

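The 6 Iroquois homeobox genes of the mouse were described at single CpG sites in gonadal adipose tissue, hypothalamus and liver. Irx1, Irx2 and Irx4 form the IrxA cluster on chromosome 13, and Irx3, Irx5 and Irx6 form the IrxB cluster on chromosome 8. A CpG was taken when it lay in a gene body or within 5 kb of it on the build GRCm38 and had at least 10 reads in each of the 2 pools of a tissue. This gave 1257 CpGs in at least 1 tissue, of 1894641 in all, with 1254 in adipose, 1069 in hypothalamus and 1101 in liver. The family was chosen by called differences between the BPA and control pools of these same tables, so all values between BPA and control pools are given as a description, without a test. Differences between tissues were not used in that choice and were tested. The adipose pools enter both, so tissue comparisons with adipose are not independent of the choice at the CpGs called between the adipose pools. The same holds for their neighbours, which can share reads with them.

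Iroquois genes encode transcription factors with a homeodomain of the three-amino-acid-loop-extension (TALE) class. They pattern the neural tube, heart, limbs and other organs of the embryo, and the genes of each cluster are often active in overlapping domains. Irx3 and Irx5 are also studied in fat and hypothalamus, because introns of the neighbouring gene Fto hold enhancers that contact Irx3 and variants linked to human body weight. CpG-rich promoters of such developmental genes are usually unmethylated, while the surrounding DNA is usually methylated.

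The study measured DNA methylation after exposure to bisphenol A (BPA), a plastics monomer with weak oestrogen-like activity, before birth. C57BL/6 dams received BPA in corn oil by gavage at 5 mg per kg per day from day 1 to day 20 after conception, or corn oil alone as control, and both groups had been kept on a feed low in plant oestrogens before mating. Male offspring were sampled at 3 weeks of age, with 3 BPA and 3 control samples in each of the 3 tissues, from 4 BPA litters and 3 control litters. Reduced representation bisulfite sequencing was used, in which MspI cuts at CCGG and reads come from the fragments near these sites. No source used here gives the litter of a sample, or says whether the samples of different tissues share animals. The deposited tables join the 3 samples of a group into 1 pool, so no value below has an error between animals, and all intervals are 95% intervals for counting error only. Pools were numbered, and number 1 was read as BPA and number 0 as control because a label names the control group before the BPA group. No label states the numbering, and with the reverse numbering every direction between BPA and control pools would turn.

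The tables listed 1687641 to 1946477 CpGs per tissue, with a median of 98 to 164 reads per CpG in the BPA pools and 93 to 144 in the control pools. At the Iroquois CpGs with at least 10 reads in both pools of a tissue the medians were 123 to 180 in the BPA pools and 115 to 162 in the control pools. The medians over all listed CpGs also take in CpGs with as few as 3 reads. The 5 hepatocyte marker genes had their lowest methylation in liver in both sets of pools. Of the 5 adipocyte and the 5 neuron markers, 3 each were lowest in adipose and in hypothalamus. Of the 3 markers of each other cell type, endothelial ones were lowest in adipose for 1 in the BPA pools and 2 in the control pools, leukocyte ones for 1 in both, and epididymis and testis ones for 2 in the BPA pools and 1 in the control pools. In whole tissue, another share of a cell type and another methylation level within a cell type cannot be told apart.

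The promoter stretches of 3 of the 6 genes were matched in RefSeq (GRCm38.p6), and they are shown because they hold the letters behind the measured values. Each is the 250 bases before the annotated start, 5′ to 3′ on the strand of the gene, and capitals mark the CpGs with at least 10 reads in all 6 pools. The Irx4 stretch lies at chr13:73260247-73260496 on the plus strand, the Irx2 stretch at chr13:72628570-72628819 on the plus strand, and the Irx3 stretch at chr8:91801655-91801904 on the minus strand. The Irx4 and Irx2 stretches lie inside the gene spans used below, before a start within the span, so their CpGs count as gene-body CpGs.
Irx4: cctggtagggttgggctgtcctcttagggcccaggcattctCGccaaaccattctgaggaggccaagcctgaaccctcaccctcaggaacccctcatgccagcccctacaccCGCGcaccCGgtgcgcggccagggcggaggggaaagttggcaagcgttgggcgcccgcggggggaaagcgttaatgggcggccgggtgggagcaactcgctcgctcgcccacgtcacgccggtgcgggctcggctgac
Irx2: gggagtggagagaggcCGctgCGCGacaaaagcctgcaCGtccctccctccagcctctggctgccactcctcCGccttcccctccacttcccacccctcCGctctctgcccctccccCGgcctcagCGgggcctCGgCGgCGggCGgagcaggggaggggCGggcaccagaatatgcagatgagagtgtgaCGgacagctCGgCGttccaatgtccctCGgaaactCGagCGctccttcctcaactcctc
Irx3: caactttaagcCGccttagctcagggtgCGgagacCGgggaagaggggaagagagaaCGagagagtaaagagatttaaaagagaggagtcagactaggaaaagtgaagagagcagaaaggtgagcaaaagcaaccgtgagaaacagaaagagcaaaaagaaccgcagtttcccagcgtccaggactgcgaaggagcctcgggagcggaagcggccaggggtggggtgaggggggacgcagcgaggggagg

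All 19 CpGs of the Irx2 stretch were measured, 4 of 22 in Irx4 and 4 of 13 in Irx3. The MspI site CCGG, which reads the same on both strands, occurred 3 times in Irx4 and once in each of the others, and 47.1% of 32851 promoters of this length hold it. The Irx2 stretch was nearly unmethylated in every pool, with 0.63% of 5712 reads in the BPA pool and 0.692% of 5206 in the control pool of adipose. In hypothalamus it had 1.3% of 4239 reads in the BPA pool and 0.81% of 3703 in the control pool, and in liver 0.838% of 4656 in the BPA pool and 1.26% of 4858 in the control pool. The pooled level of the 4 CpGs of Irx3 lay between 0.137% in the liver BPA pool and 2.71% in the hypothalamus control pool. The highest single CpG of these had 4.12% in the hypothalamus control pool. The Irx4 stretch reached 8.4% in the BPA pool and 12.6% in the control pool of hypothalamus and is taken up again with the tissues.

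The Iroquois genes were poor in methylation in all 3 tissues. Over the 1022 CpGs with at least 10 reads in all 6 pools, 6.48% of reads were methylated in the adipose BPA pool and 7.46% in the adipose control pool. The level was 6.63% in the BPA pool and 6.36% in the control pool of hypothalamus, and 5.4% in the BPA pool and 5.38% in the control pool of liver. Over the 1485442 CpGs of the tables with such coverage the level lay between 50.6% and 53.6%. Of the Iroquois CpGs, 786 (76.9%) were under 10% in all 6 pools and 31 (3.03%) were at 50% or more in all of them. Of all CpGs, 33.8% and 49.8% fell into these classes.

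The low methylation ended outside the genes of each cluster. CpGs of the IrxA cluster more than 5 kb from its genes (369 CpGs) had 73.8% methylated reads in the BPA pool and 74.0% in the control pool of adipose. The same CpGs had 78.8% in the BPA pool and 78.5% in the control pool of hypothalamus, and 73.4% in the BPA pool and 73.2% in the control pool of liver. Between the IrxB genes (429 CpGs) the level was 61.2% in the BPA pool and 62.0% in the control pool of adipose. It was 69.4% in the BPA pool and 70.1% in the control pool of hypothalamus, and 57.4% in the BPA pool and 56.4% in the control pool of liver.

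**Figure D1:**
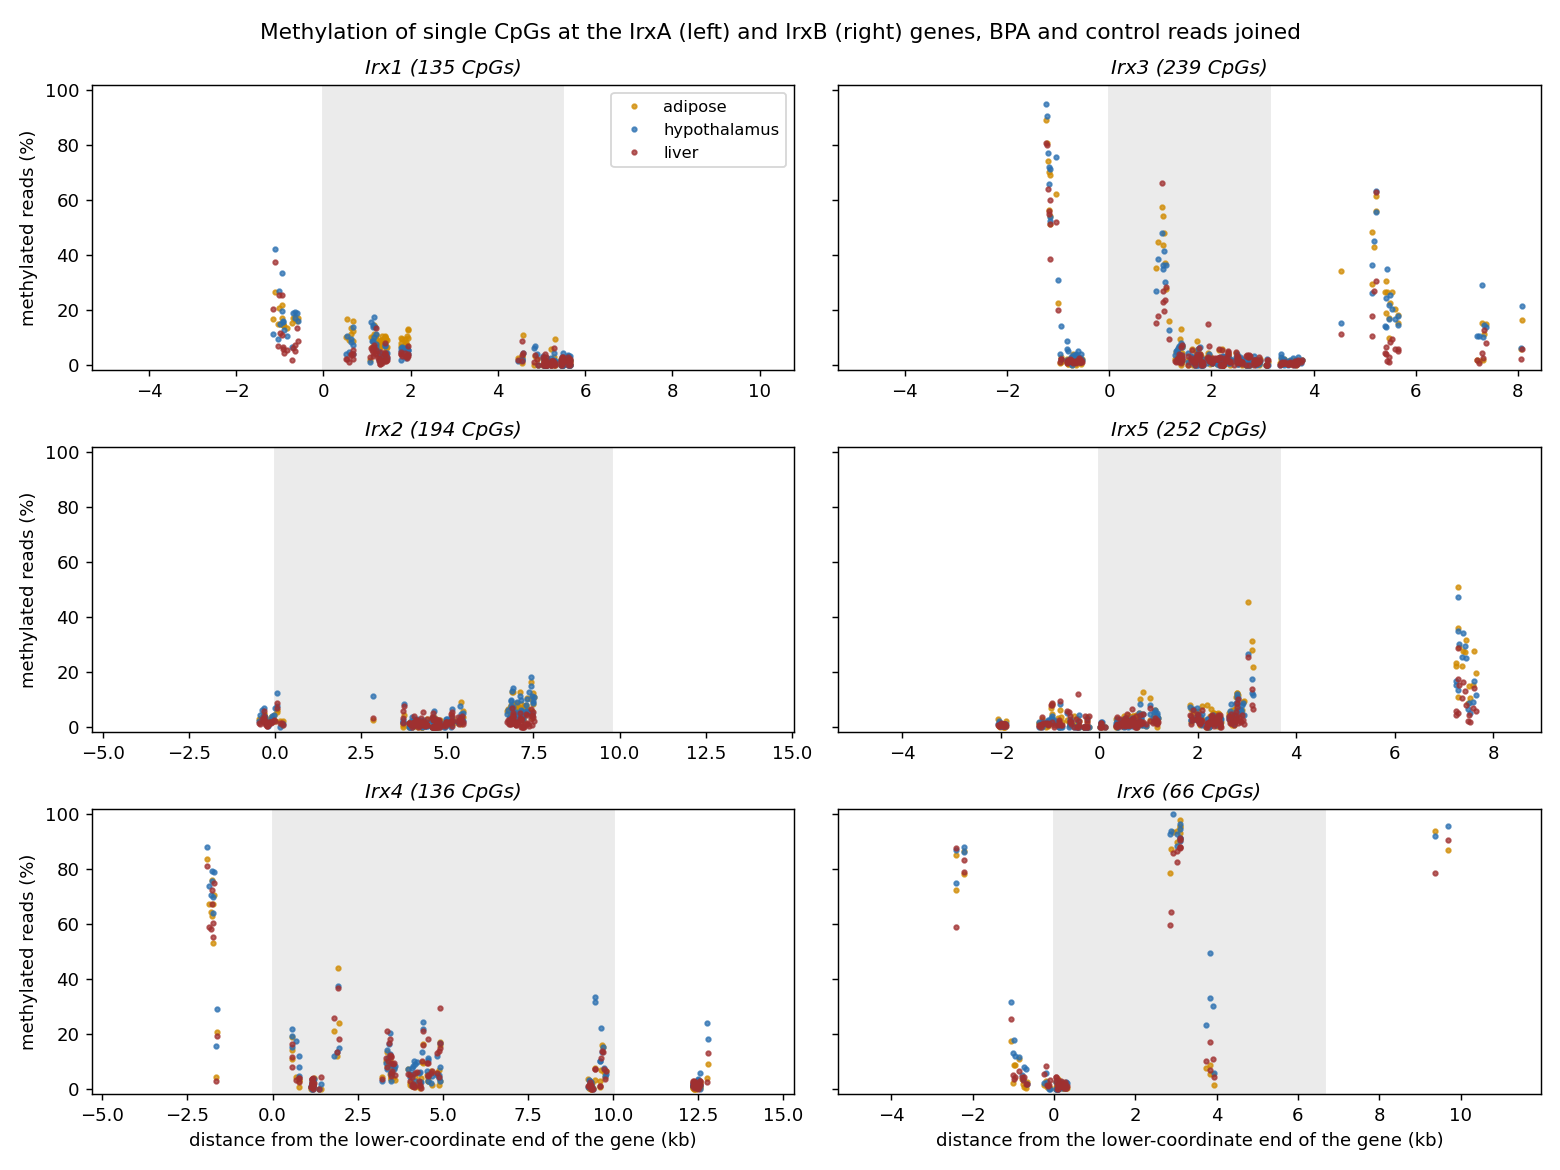
Methylated reads (%, vertical axis) of single CpGs at the 6 genes, by distance in kb from the end of the gene with the lower coordinate (horizontal axis), with BPA and control reads of a tissue joined. Shading marks the gene body, and most points of the 1022 CpGs lie under 10%. Higher points lie, among other places, at the flanks of Irx1, Irx4, Irx3, Irx5 and Irx6 and within Irx3 and Irx6.

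Within IrxA, Irx2 was the least methylated gene (13:72624430 to 72634196). It had 2.6% methylated reads in the BPA pool and 3.24% in the control pool of adipose, 3.21% in the BPA pool and 2.53% in the control pool of hypothalamus, and 1.65% in the BPA pool and 1.98% in the control pool of liver. Of its 194 CpGs, 173 were under 10% in all pools, and 38 of its gene-body CpGs also lie in the noncoding gene Gm20554.

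Irx1 (13:71958232 to 71963723), known for roles in lung, limb and heart development, had 7.35% in the BPA pool and 10.1% in the control pool of adipose over 135 CpGs. It had 7.73% in the BPA pool and 8.1% in the control pool of hypothalamus, and 4.75% in the BPA pool and 5.28% in the control pool of liver. The pooled level of the 13 CpGs above its body lay between 0.489% and 1.36% in the 6 pools, with single CpGs up to 6.67%. The pooled level of the 17 CpGs on its other side lay between 11.7% and 22.3%. Single CpGs there ranged from 0.935% in the liver BPA pool to 48.3% in the hypothalamus control pool.

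Irx4 (13:73259589 to 73269622), a regulator of the heart ventricle, was the only IrxA gene with CpGs at 50% or more in all pools, 8 of 136, all in its flanks. Its level was 10.9% in the BPA pool and 12.3% in the control pool of adipose, 15.8% in the BPA pool and 15.0% in the control pool of hypothalamus, and 14.6% in the BPA pool and 14.5% in the control pool of liver.

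Within IrxB, Irx5 (8:92357796 to 92361456), which acts in heart and retina, was the least methylated gene, with 219 of 252 CpGs under 10% in all pools. It had 4.68% in the BPA pool and 4.91% in the control pool of adipose, 3.76% in the BPA pool and 3.49% in the control pool of hypothalamus, and 2.74% in the BPA pool and 2.77% in the control pool of liver. Of its CpGs, 30 lie in the noncoding gene Crnde.

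Irx3 (8:91798511 to 91801654), which acts in neural tube and fat cells, had 6.16% in the BPA pool and 6.71% in the control pool of adipose over 239 CpGs. It had 6.03% in the BPA pool and 5.29% in the control pool of hypothalamus, and 4.15% in the BPA pool and 4.07% in the control pool of liver. Of its CpGs, 41 lie in the noncoding gene Irx3os and 22 in Gm39222.

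Irx6 (8:92674289 to 92680956), known from the retina, was the most methylated gene of IrxB in all 6 pools, with 16 of 66 CpGs at 50% or more in all pools, 10 of them in its body. It had 16.3% in the BPA pool and 17.1% in the control pool of adipose, 14.3% in the BPA pool and 16.9% in the control pool of hypothalamus, and 17.6% in the BPA pool and 14.5% in the control pool of liver.

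In the control pools the order of the tissues was alike in most genes, with liver lowest for 5 of the 6 and Irx4 as the exception. In the BPA pools Irx6 was highest in liver, and Irx1 and Irx2 were highest in hypothalamus instead of adipose, with overlapping counting intervals for Irx1. Counting intervals of neighbours in this order overlapped for Irx6 in the adipose (16.5% to 17.7%) and hypothalamus (16.0% to 17.7%) control pools, and for Irx4 in the hypothalamus (14.5% to 15.6%) and liver (14.1% to 14.9%) control pools.

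**Figure D2:**
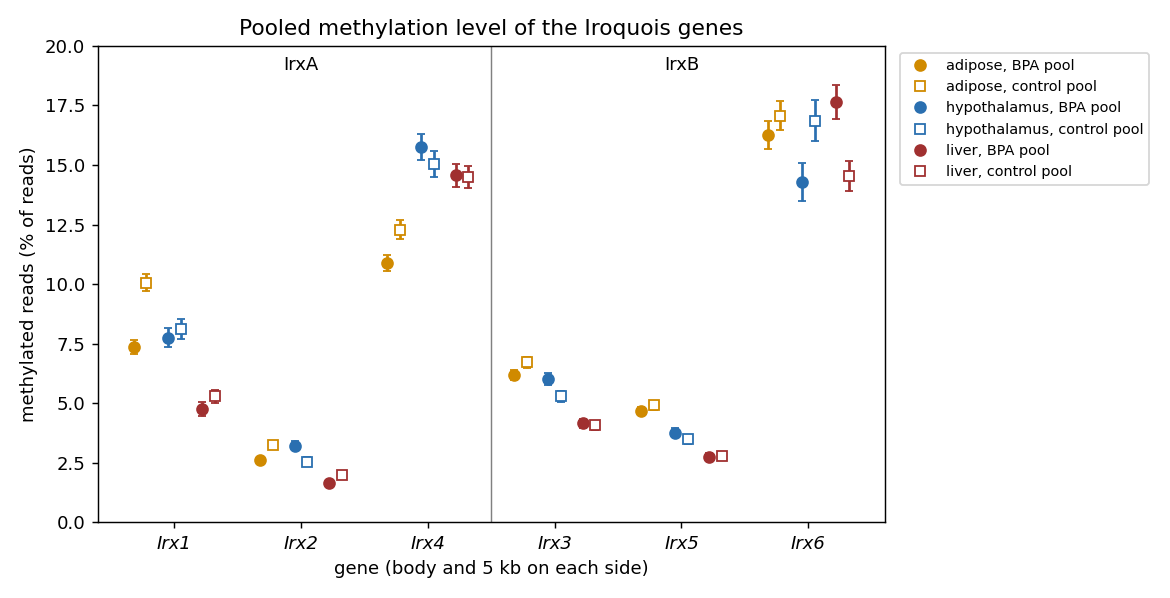
Pooled methylation level (% of reads, vertical axis) of each gene with 5 kb on each side, in the BPA pools (filled circles) and control pools (open squares) of adipose, hypothalamus and liver, with 95% intervals for counting error. Irx2 lies between 1.65% and 3.24% in all pools, Irx4 between 10.9% and 15.8%, and Irx6 between 14.3% and 17.6%.

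Between tissues, CpGs were compared by a two-sided Fisher's exact test on pooled reads, adjusted over all CpGs by the Benjamini-Hochberg procedure. A CpG was called at an adjusted p under 0.05 and a difference of at least 5 percentage points. The test compares the reads of 2 pools, not animals, and bounds given with a gap are Newcombe 95% bounds. CpGs on 1 read are not independent, and PCR copies are not separate molecules. The control pools were compared first, and the BPA pools, which hold other samples, gave a repeat of each comparison.

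Adipose was more methylated than liver at 115 Iroquois CpGs in the control pools and less at 6, so 121 of 1120 were called. These are 10.3% higher and 0.536% lower CpGs, where all CpGs of the tables had 8.05% higher and 8.42% lower (16.5% called). After scaling of p-values for spread between pools beyond counting error, 33 of 68 IrxA and 27 of 53 IrxB calls were left. In the BPA pools 78 were higher and 16 lower in adipose than in liver, of 1101, with 7.43% higher and 8.34% lower over all CpGs (15.8% called). A CpG under 5% in liver cannot be called lower in adipose. Of the calls, 54 were shared by both sets in the same direction, which is 57.4% of the BPA-pool calls and 45% of the control-pool calls tested in both, and 0 went in opposite directions. IrxA gave 36 higher and 13 lower CpGs in the BPA pools and 64 and 4 in the control pools, and IrxB gave 42 and 3 in the BPA pools and 51 and 2 in the control pools.

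Hypothalamus was likewise above liver at 72 CpGs in the control pools and below it at 7, of 1055 tested. Over all CpGs 11.2% were higher and 5.72% lower (16.9% called). In the BPA pools 70 were higher and 5 lower of 1026, where all CpGs had 11.1% higher and 5.63% lower (16.7% called). The 2 sets shared 49 calls, 65.3% of those in the BPA pools and 63.6% of those in the control pools.

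Adipose and hypothalamus differed at 57 of 1096 CpGs in the control pools, 31 higher and 26 lower in adipose, with 3.79% higher and 9.08% lower over all CpGs (12.9% called). After scaling of p-values for spread between pools beyond counting error, 4 of 34 IrxA and 8 of 23 IrxB calls were left. In the BPA pools 12 were higher and 44 lower of 1077, with 3.89% higher and 9.47% lower over all CpGs (13.4% called). The split between higher and lower calls differed between the 2 sets of pools, which was not tested, and they shared 22 calls, 39.3% of those in the BPA pools and 40% of those in the control pools. Weakly methylated CpGs stood higher in the hypothalamus BPA pool across the whole tables. Over 502614 CpGs under 10% in all pools the level was 1.25% in the BPA pool and 0.805% in the control pool of hypothalamus, against 0.887% in the BPA pool and 0.882% in the control pool of adipose. The 786 Iroquois CpGs of this class had 2.48% in the BPA pool and 1.92% in the control pool of hypothalamus. In adipose they had 1.86% in the BPA pool and 2.13% in the control pool. The part of this in the Iroquois calls was not tested.

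The IrxB gene Irx6 had the largest median difference of the stretches called between adipose and hypothalamus in the control pools, -29.8 points. A stretch was at least 3 called CpGs of 1 direction, each at most 200 bp from the next, and its levels are those of its called CpGs alone. The CpGs of every stretch were picked by their calls, so the gap between the tissues of that call follows in part from the choice. In the Irx6 body, 4 CpGs between 92678036 and 92678196 had 6.41% in the BPA pool and 7.11% in the control pool of adipose. They had 30.3% in the BPA pool and 34.7% in the control pool of hypothalamus, and 11.1% in the BPA pool and 10.1% in the control pool of liver. CpG by CpG, the control pools had 3.19% to 10.8% in adipose, 26.5% to 48.2% in hypothalamus and 6.7% to 13.5% in liver. Hypothalamus did not overlap either other tissue there, but the 4 CpGs were picked by their calls in these same pools. The gap between the ranges thus follows in part from that choice. The BPA pools had 4.17% to 7.44% in adipose and 20.4% to 50.5% in hypothalamus, which did not overlap, and 6.93% to 20.9% in liver, which reached just above the lowest hypothalamic CpG. Its leading CpG at 92678125 had 3.19% (251 reads) in adipose and 36.3% (113 reads) in hypothalamus in the control pools, a gap of -33.1 points with bounds of -42.4 and -24.3 (Fisher's exact test, adjusted p = 2.47e-14). Nearby in the same gene body, 5 CpGs from 92677139 to 92677401, of 10 tested there, were called between adipose and liver in the control pools and were highly methylated. They had 86.7% in the BPA pool and 94.1% in the control pool of adipose, 87.4% in the BPA pool and 95.3% in the control pool of hypothalamus, and 78.6% in the BPA pool and 75.9% in the control pool of liver.

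Irx3 carried several stretches, and liver was the least methylated tissue in each of those described here. In its gene body, 5 CpGs from 91799422 to 91799577 had 42.3% in the BPA pool and 47.1% in the control pool of adipose. They had 34.4% in the BPA pool and 34.1% in the control pool of hypothalamus, and 20.2% in the BPA pool and 18.6% in the control pool of liver. The leading CpG at 91799574 had 55.6% of 270 reads in adipose and 19.3% of 218 in liver in the control pools, a gap of 36.3 points with bounds of 28.0 and 43.8 (Fisher's exact test, adjusted p = 6.07e-15). Above the gene, inside Irx3os, 10 CpGs from 91803921 to 91804166 had 18.9% in the BPA pool and 19.4% in the control pool of adipose. There hypothalamus had 21.0% in the BPA pool and 17.4% in the control pool, and liver had 5.3% in the BPA pool and 5.29% in the control pool. Another group of 4 CpGs from 91805718 to 91805821, also inside Irx3os, was highest in hypothalamus. It had 4.99% in the BPA pool and 5.58% in the control pool of adipose, 15.3% in the BPA pool and 16.3% in the control pool of hypothalamus, and 1.87% in the BPA pool and 2.84% in the control pool of liver. Below the gene, inside Gm39222, 3 CpGs from 91797340 to 91797359 had 59.0% in the BPA pool and 70.0% in the control pool of adipose, 66.9% in the BPA pool and 59.8% in the control pool of hypothalamus, and 55.0% in the BPA pool and 48.3% in the control pool of liver. Next to them, 4 CpGs from 91797466 to 91797691 had 18.9% in the BPA pool and 21.5% in the control pool of adipose, 26.2% in the BPA pool and 28.7% in the control pool of hypothalamus, and 16.4% in the BPA pool and 16.6% in the control pool of liver.

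Irx5 was set apart from liver at a stretch above the gene, 12 CpGs from 92365036 to 92365437. They had 23.3% in the BPA pool and 26.2% in the control pool of adipose, 19.3% in the BPA pool and 19.8% in the control pool of hypothalamus, and 10.5% in the BPA pool and 8.6% in the control pool of liver. The leading CpG at 92365234 had 30.7% of 443 reads in adipose and 5.23% of 344 in liver in the control pools, a gap of 25.5 points with bounds of 20.4 and 30.3 (Fisher's exact test, adjusted p = 2.87e-19). For the BPA pools it had 32.5% of 477 reads in adipose and 10.3% of 368 in liver. A further 8 CpGs in the Irx5 body, from 92360571 to 92360914, were called between adipose and liver in the control pools, of 16 tested there. These 8 were highest in adipose. They had 18.1% in the BPA pool and 21.6% in the control pool of adipose, 11.1% in the BPA pool and 11.3% in the control pool of hypothalamus, and 7.66% in the BPA pool and 7.61% in the control pool of liver. Below Irx5, 3 CpGs from 92356821 to 92356831 were called lower in hypothalamus than in liver in the control pools. They had 6.94% in the BPA pool and 6.2% in the control pool of adipose, 3.1% in the BPA pool and 3.57% in the control pool of hypothalamus, and 7.02% in the BPA pool and 9.05% in the control pool of liver.

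In IrxA, the measured CpGs of the Irx4 promoter stretch, which lies inside the gene span, were more methylated in hypothalamus than in adipose or liver. These were 4 of 22 CpGs, all 130 to 209 bases before the start. Over the 4 capitalised CpGs, adipose had 2.33% in the BPA pool and 3.02% in the control pool. Hypothalamus had 8.4% in the BPA pool and 12.6% in the control pool, and liver had 3.45% in the BPA pool and 3.38% in the control pool. At the CpG 209 bases before the start (73260288), the control pools had 5.38% (260 reads) in adipose and 19.9% (161 reads) in hypothalamus, a gap of -14.5 points with bounds of -21.7 and -8.06 (Fisher's exact test, adjusted p = 0.00014). This CpG had, for the BPA pools, 3.28% (305 reads) in adipose and 15.3% (177 reads) in hypothalamus. The BPA pools of hypothalamus and liver were close at the CpG 138 bases before the start (73260359), with 4.81% (187 reads) and 4.52% (221 reads). Below the annotated gene, 4 called CpGs from 73257718 to 73257942 were of mixed level. The one at 73257942 had 2.3% to 17.8% in the 6 pools, and the others were above 50% in every pool. Together they had 57.8% in the BPA pool and 56% in the control pool of adipose, 60.9% in the BPA pool and 61.3% in the control pool of hypothalamus, and 56.1% in the BPA pool and 46.4% in the control pool of liver.

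The Irx4 body held 3 further stretches that were called in the BPA pools. Near its upper end, 3 CpGs from 73269066 to 73269234 had 4.15% in the BPA pool and 8.12% in the control pool of adipose, 38.4% in the BPA pool and 22.8% in the control pool of hypothalamus, and 10.3% in the BPA pool and 6.45% in the control pool of liver. Hypothalamus was thus the highest tissue in both sets, though on only 86 reads over these CpGs in its BPA pool and 127 in its control pool. It was also highest at 5 CpGs from 73263681 to 73263905, with 10.5% in the BPA pool and 6.36% in the control pool, against 1.15% in the BPA pool and 1.67% in the control pool of adipose. Liver was highest at 5 CpGs from 73264168 to 73264503, with 3.95% in the BPA pool and 4.94% in the control pool of adipose, and 15.0% in the BPA pool and 11.3% in the control pool of liver.

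Irx1 and Irx2 differed from liver at weakly methylated CpGs of their bodies. Irx2 with its flanks had 14 of 208 CpGs (6.73%) called between adipose and liver in the BPA pools. In the control pools 20 of 215 (9.3%) were called. Both shares lay below those over all CpGs, 15.8% in the BPA pools and 16.5% in the control pools. In Irx1, 18 called CpGs from 71959374 to 71959688 had 6.63% in the BPA pool and 10.2% in the control pool of adipose, 4.57% in the BPA pool and 5.51% in the control pool of hypothalamus, and 2.15% in the BPA pool and 2.21% in the control pool of liver. In Irx2, 14 called CpGs from 72631177 to 72631447 had 5.88% in the BPA pool and 9.4% in the control pool of adipose. Hypothalamus had 6.92% in the BPA pool and 6.19% in the control pool there, and liver had 2.27% in the BPA pool and 1.89% in the control pool. The leading Irx2 CpG at 72631420 had 9.73% of 339 reads in adipose and 1% of 400 reads in liver in the control pools, a gap of 8.73 points with bounds of 5.61 and 12.4 (Fisher's exact test, adjusted p = 4.99e-07). A second Irx2 stretch of 6 CpGs, from 72631707 to 72631944, had 10.8% in the BPA pool and 12.5% in the control pool of adipose, 13.8% in the BPA pool and 9.83% in the control pool of hypothalamus, and 4.14% in the BPA pool and 3.37% in the control pool of liver. In Irx1, 8 CpGs from 71958756 to 71958912 had 10.0% in the BPA pool and 14.1% in the control pool of adipose, 8.01% in the BPA pool and 6.6% in the control pool of hypothalamus, and 2.69% in the BPA pool and 2.74% in the control pool of liver. Between adipose and hypothalamus, 3 of 13 Irx1 CpGs from 71960014 to 71960177 were called, and these had 11.2% in the BPA pool and 10.1% in the control pool of adipose, 4.36% in the BPA pool and 3.22% in the control pool of hypothalamus, and 5.93% in the BPA pool and 4.21% in the control pool of liver. Below the gene, 12 CpGs from 71957190 to 71957640 had 10.5% in the BPA pool and 20.9% in the control pool of adipose, 13.7% in the BPA pool and 15.9% in the control pool of hypothalamus, and 7.06% in the BPA pool and 7.13% in the control pool of liver. This last stretch holds CpGs on which the choice of the family rests.

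Irx1 had 27 called CpGs of 159 (17.0%) between adipose and liver in the BPA pools and 43 of 159 (27.0%) in the control pools. Over all CpGs 15.8% were called in the BPA pools and 16.5% in the control pools. Of the Irx1 calls, 2 in the BPA pools and 7 in the control pools were also among the CpGs at which the adipose pools themselves differed.

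The remaining leading CpGs, the ones with the smallest adjusted p of a gene in a comparison, are given as methylated shares of the reads there. Between adipose and hypothalamus in the control pools, Irx1 had 29.3% of 283 in adipose and 48.3% of 232 in hypothalamus at 71957121, and Irx2 had 9.72% of 216 in adipose and 1.19% of 168 in hypothalamus at 72631232. Irx3 had 2.71% of 332 in adipose and 15.6% of 276 in hypothalamus at 91797576, and Irx5 had 47.1% of 191 in adipose and 24.1% of 79 in hypothalamus at 92360825. For the BPA pools, Irx1 had 12.6% of 301 in adipose and 30.7% of 218 in hypothalamus at 71957292, Irx2 had 10.4% of 460 in adipose and 3.87% of 388 in hypothalamus at 72631336, and Irx4 had 2.79% of 323 in adipose and 17.8% of 270 in hypothalamus at 73257942. Irx3 had 2.57% of 389 in adipose and 12.3% of 252 in hypothalamus at 91797576, and Irx6 had 6.87% of 262 in adipose and 50.5% of 99 in hypothalamus at 92678129. Irx5 had 0 methylated of 320 reads in adipose, which allows a level of up to 0.938%, and 5.1% of 98 in hypothalamus at 92358320. The leading CpG of Irx3 was thus the same in both sets of pools.

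Between adipose and liver in the control pools, Irx1 had 20.6% of 233 in adipose and 1.93% of 311 in liver at 71958772, Irx4 had 70.2% of 460 in adipose and 54.4% of 443 in liver at 73257718, and Irx6 had 77.9% of 303 in adipose and 56.5% of 292 in liver at 92671871. For the BPA pools, Irx1 had 8.16% of 539 in adipose and 0.951% of 526 in liver at 71958818, Irx2 had 7.67% of 417 in adipose and 0.292% of 343 in liver at 72631420, and Irx3 had 40.6% of 308 in adipose and 15.5% of 251 in liver at 91799474. Irx4 had 2.26% of 443 in adipose and 11.5% of 348 in liver at 73263119, and Irx6 had 98.6% of 74 in adipose and 74% of 50 in liver at 92683664. Irx2 and Irx5 had the same leading CpG in both sets, and Irx4 was the gene whose leading CpG was higher in adipose in the control pools and another one higher in liver in the BPA pools.

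Between hypothalamus and liver in the control pools, Irx1 had 16.8% of 322 in hypothalamus and 5.5% of 527 in liver at 71957309, Irx2 had 8.59% of 163 in hypothalamus and 0.422% of 237 in liver at 72631293, and Irx4 had 73.3% of 288 in hypothalamus and 54.4% of 443 in liver at 73257718. Irx3 had 28.8% of 222 in hypothalamus and 4.61% of 304 in liver at 91805808, Irx5 had 26.3% of 236 in hypothalamus and 5.23% of 344 in liver at 92365234, and Irx6 had 36.3% of 113 in hypothalamus and 6.7% of 224 in liver at 92678125. For the BPA pools, Irx3, Irx5 and Irx6 were led by the same CpGs, with 29.3% of 232 in hypothalamus and 4.05% of 296 in liver, 23.7% of 236 in hypothalamus and 10.3% of 368 in liver, and 30.1% of 136 in hypothalamus and 6.93% of 202 in liver. Irx1 had 16.4% of 281 in hypothalamus and 4.72% of 254 in liver at 71957580, Irx2 had 16% of 75 in hypothalamus and 0.685% of 146 in liver at 72631792, and Irx4 had 17.8% of 270 in hypothalamus and 3.37% of 297 in liver at 73257942. The Irx1 CpGs at 71957309, 71957292 and 71957580 are among those called between the adipose pools.

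**Figure D3:**
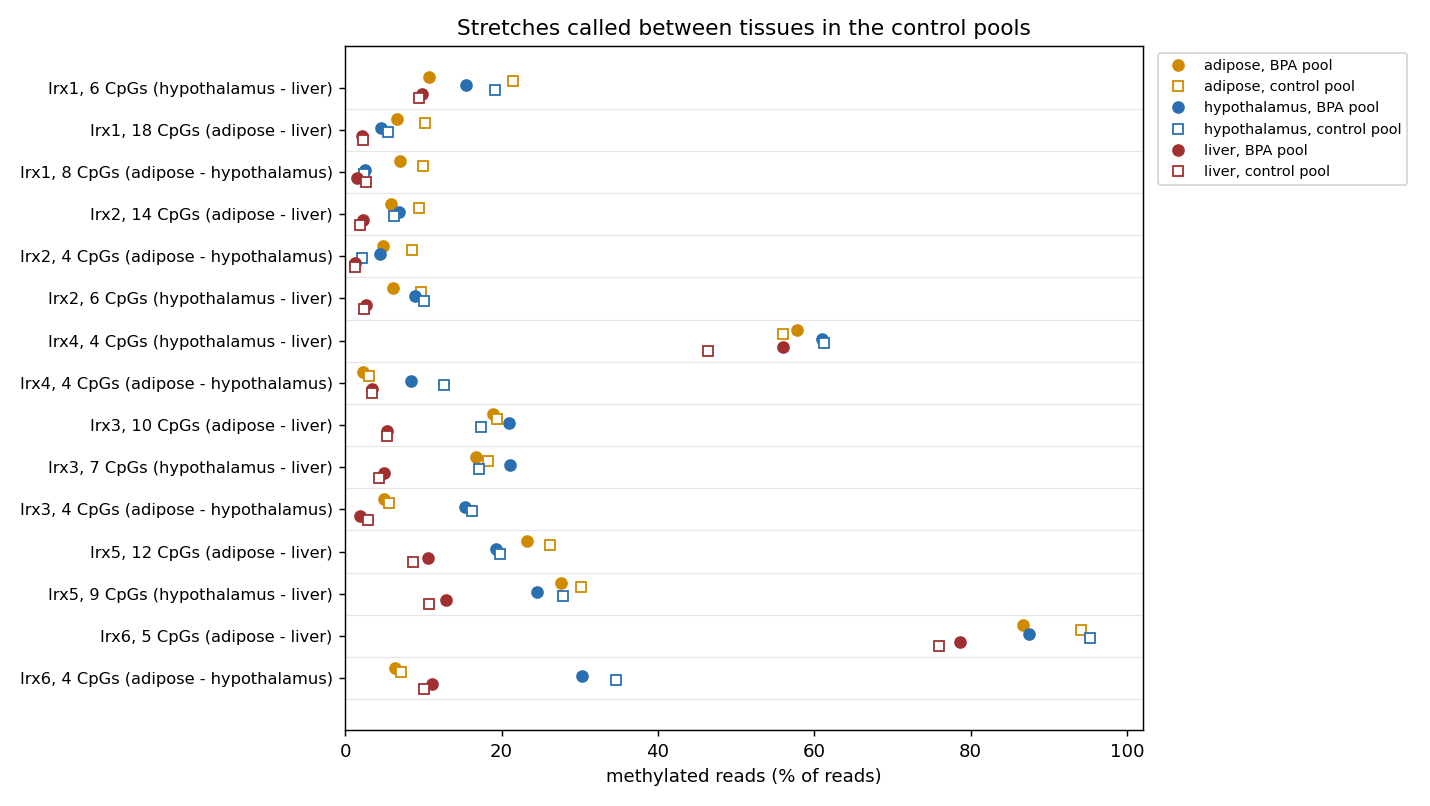
Methylated reads (% of reads, horizontal axis) in all 6 pools for the stretch with the most called CpGs of each gene and tissue pair of the control pools, named in brackets (vertical axis), each stretch drawn once. The Irx6 stretch of 4 CpGs has hypothalamus at 30.3% and 34.7%, away from the other tissues, and the Irx3 and Irx5 stretches have liver lowest.

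Between BPA and control pools, 10 of 1254 Iroquois CpGs (0.797%) were called in adipose, all lower in the BPA pool, with 0.535% of all CpGs called, 0.252% higher and 0.283% lower. The choice of the genes rests on these values, so nothing is read from the share. All 10 lay in IrxA, 9 at Irx1 and 1 at Irx4. In hypothalamus 0 of 1069 CpGs were called (0.0058% of all CpGs) and 35 (3.27%) had an unadjusted Fisher p under 0.05, as did 3.41% of all CpGs. In liver 0 of 1101 were called (0.0259% of all CpGs) and 29 (2.63%) had an unadjusted Fisher p under 0.05, as did 4.21% of all CpGs.

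The Irx1 calls formed 2 groups below the gene body. The nearer group, 4 CpGs from 71957580 to 71957640, had 9.08% in the BPA pool and 25.7% in the control pool of adipose. The same CpGs had 17.3% in the BPA pool and 18.4% in the control pool of hypothalamus, and 7.2% in the BPA pool and 8.22% in the control pool of liver. The farther group, 5 CpGs from 71957241 to 71957315, had 10.6% in the BPA pool and 22.1% in the control pool of adipose. In hypothalamus this group had 16.3% in the BPA pool and 20.4% in the control pool, and in liver 10.9% in the BPA pool and 10.7% in the control pool. The adipose control pool was the highest of the 6 at both groups, which follows in part from the choice of these CpGs by their adipose calls. At the single CpG 71957292 the hypothalamus control pool was higher, with 36.6% of 172 reads against 31.9% of 263 in the adipose control pool.

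The other CpGs below Irx1, which were not called between the adipose pools, are given apart from these 9. Of 9 such CpGs in adipose, 8 were lower in the BPA pool, with a median of 12.1% in the BPA pool and 20.5% in the control pool. In hypothalamus 6 of 8 were lower in the BPA pool, with medians of 11.8% in the BPA pool and 13.5% in the control pool. In liver 5 of 8 were lower, with medians of 5.95% in the BPA pool and 7.49% in the control pool. Neighbouring CpGs can lie on shared reads with the called ones, so these are not separate observations. Squared differences between the adipose pools came to 1.91 times counting error over all CpGs, and 1 of the 10 calls was left once p-values were scaled by it.

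**Figure D4:**
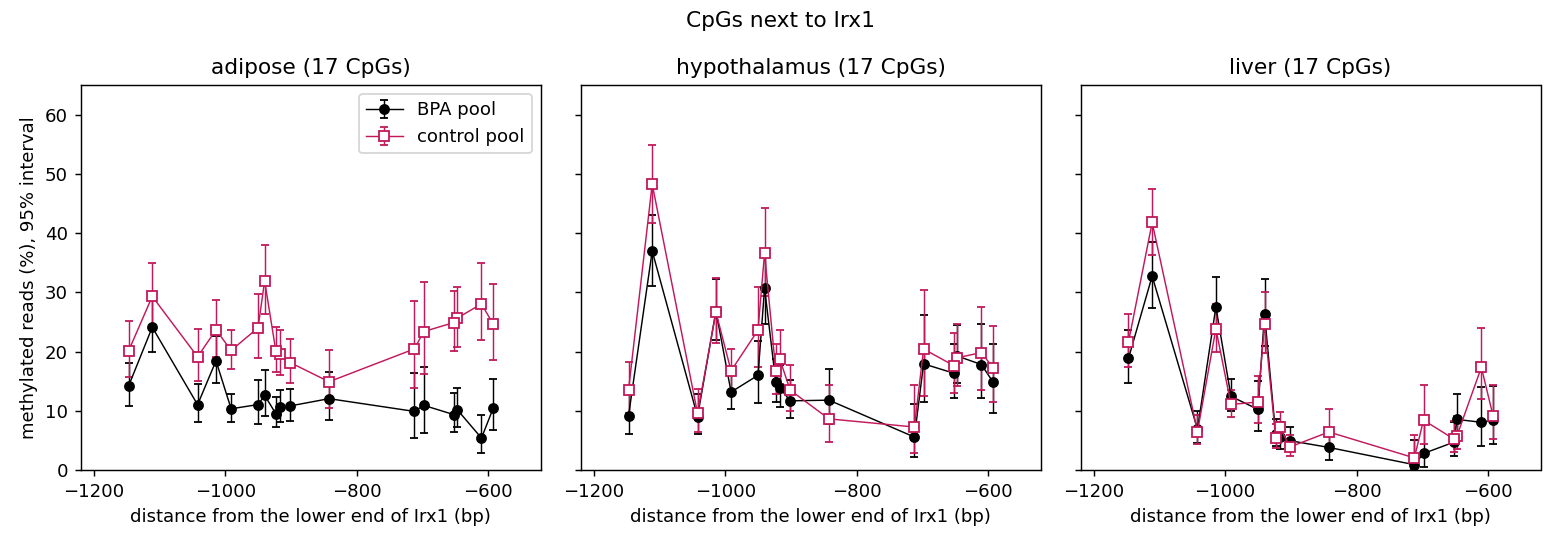
Methylated reads (%, vertical axis) with 95% counting intervals at 17 CpGs below Irx1, by distance in bp from the end of the gene with the lower coordinate (horizontal axis), in the BPA pool (filled) and the control pool (open) of each tissue. In adipose the BPA points lie below the control points at all 17 CpGs, which include the 9 called ones on which the choice of the family rests. The 1 further adipose CpG, too far away to be drawn, had 70.8% of 24 reads in the BPA pool and 66.7% of 18 in the control pool.

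At Irx4 the called CpG at 73262966 in the gene body had 8.57% of 385 reads in the BPA pool and 18.6% of 376 reads in the control pool of adipose, a gap of -10.0 points with bounds of -14.9 and -5.21. It had 15.7% in the BPA pool and 12.6% in the control pool of hypothalamus, and 20.9% in the BPA pool and 21.1% in the control pool of liver. For IrxB no CpG was called between BPA and control pools in adipose, hypothalamus or liver.

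CpGs next to the coverage limit had few reads. In adipose, 9 CpGs with 10 or 11 reads in the shallower pool had 16.5% in the BPA pool and 25.6% in the control pool, and 24 CpGs with 8 or 9 reads, left out, had 11.6% in the BPA pool and 6.94% in the control pool. In hypothalamus, 21 such CpGs inside the limit had 17.0% in the BPA pool and 9.96% in the control pool, and 40 outside had 8.75% in the BPA pool and 7% in the control pool. In liver, 10 inside had 4.35% in the BPA pool and 2.61% in the control pool, and 13 outside had 8.11% in the BPA pool and 10.6% in the control pool.

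Other TALE homeobox genes were counted beside the family. Over 12 such genes, among them Mkx and the Meis, Pknox and Tgif genes, which include partners of Hox proteins, 92 CpGs were higher and 249 lower in adipose than in liver in the control pools, of 1751. This is 19.5% called, where all CpGs had 8.05% higher and 8.42% lower (16.5% called). Between BPA and control pools of adipose the 12 genes had 4 higher and 1 lower of 2007 CpGs (0.249%), where 0.535% of all CpGs were called. Pknox1 had 93.1% of 130 reads in the BPA pool and 72.3% of 83 reads in the control pool at its called CpG, and Pknox2 had 21.2% of 99 reads in the BPA pool and 2.97% of 101 reads in the control pool. Meis2 and Pbx4 had 1 higher CpG each and Mkx had 1 lower.

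Of the neighbours of IrxB, Fto, an RNA demethylase gene, had 54 CpGs higher and 17 lower in adipose than in hypothalamus in the control pools, of 341 (20.8%). Over all CpGs 3.79% were higher and 9.08% lower (12.9% called). Fto had 48 higher and 19 lower in adipose than in liver, of 359 (18.7%), where 16.5% of all CpGs were called. In adipose 2 of its 425 CpGs were higher and 1 lower in the BPA pool than in the control pool (0.706%, and 0.535% of all CpGs). Crnde lies so close to Irx5 that 239 of its 246 CpGs measured in adipose and liver, and all 11 called between them, are also Irx5 CpGs and are not counted again here. Rpgrip1l, a gene of the primary cilium, had 0 called CpGs of 46 between the control pools of adipose and liver, where 16.5% of all CpGs were called.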

How the data were processed

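DNA methylation in 18 samples was deposited as 3 tables, 1 per tissue, each of which sets 2 pools of 3 samples side by side. BSMAP aligned the reads to GRCm38, also called mm10, according to the submitters' processing notes. Its version and any removal of PCR copies are not given in the sources used here. The authors deposited, per the file headers, a count of reads at each CpG in rows of 2 bp and the methylated fraction of those reads. The deposited p-value, from Fisher's exact test on the 2 pools, was within 12% of one recomputed from counts and fractions at 99.88% to 99.94% of 5000 CpGs per table. 0 value columns belong to samples of other series.

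Methylated reads were recovered as count times fraction. Fisher's p was adjusted after Benjamini and Hochberg over the nuclear CpGs with at least 10 reads in both pools, and calls needed an adjusted p under 0.05 and 5 points. Intervals are Clopper-Pearson (exact) for levels and Newcombe's for differences. Gene spans came from RefSeq without strand, exon or UTR, so "below" and "above" mean lower and higher coordinates. The members, lists and marker genes were chosen with earlier results of these data known. For each member and comparison the CpG with the smallest adjusted p was taken as leading, and up to 3 stretches were taken by number of called CpGs. Stretches that overlap a printed one are not printed apart, and other genes were named by class. For them, leading CpGs are given for calls between BPA and control pools only, and not every such gene is reported here. Alternatives were a coverage of 20 reads, gene bodies only, a difference of 10 points, scaled p-values and an unweighted mean of CpG levels. The scripts (Python 3.11.15, numpy 2.4.6, pandas 2.3.3, scipy 1.17.1, numba 0.67.0, matplotlib 3.10.9) were tested on simulated data.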

Additional observations from a re-analysis of the deposited data

How the results depend on the processing

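No paired analysis was possible because the tables hold pools and no value per sample, and for the same reason no replicate could be left out. A coverage of 20 reads moved none of the 15 counts of calls by over 1.5 times. Leaving out the CpGs called between the adipose pools likewise moved none of the 4 IrxA counts it was run on. That alternative was chosen after seeing the data, and it kept the uncalled neighbours of those CpGs, which can share reads with them. The cause of the changes below was not tested beyond the smaller sets that each alternative makes. Between BPA and control pools of adipose, 1 of 10 calls was left in gene bodies only and 1 with scaled p-values. With a difference of 10 points, IrxA calls numbered 13 in the BPA pools (31 at 5 points) and 9 in the control pools (34) between adipose and hypothalamus, 7 (49) and 25 (68) between adipose and liver, and 22 (38) and 19 (36) between hypothalamus and liver, and IrxB calls between the BPA pools of adipose and hypothalamus numbered 13 (25). In gene bodies only, IrxB calls numbered 12 in the BPA pools (25 with flanks) and 10 in the control pools (23) between adipose and hypothalamus, 19 (45) and 21 (53) between adipose and liver, and 7 (37) and 12 (43) between hypothalamus and liver. With scaled p-values, IrxA calls numbered 9 in the BPA pools and 4 in the control pools between adipose and hypothalamus, and 13 and 33 between adipose and liver, and IrxB calls numbered 10 and 8, and 24 and 27.  Of 18 gene levels, 3 moved beyond their counting interval with 20 reads, 14 in gene bodies only and 14 as an unweighted mean, and in the control pools liver was lowest for the same 5 genes in each.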
